A study of Mus musculus with 8 samples.

Results

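Cytochrome P450 enzymes that do not belong to ovarian sex steroid synthesis were compared between wildtype ovary and ovarian neoplasia of mice. The members were the genes whose probes carry a RefSeq accession of a mouse symbol made of Cyp, a family number, a subfamily letter and a gene number, without the steroid synthesis genes Cyp11a1, Cyp17a1 and Cyp19a1. The rule found 86 genes on the array, measured by 107 probes, of 20145 genes named on it and of 91 such genes in the RefSeq table. Cyp2a5, Cyp2c40, Cyp2c69, Cyp2j7 and Cyp2j12 had no named probe.

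Total RNA of whole ovaries from cycling mice, killed at 33 weeks, was measured on 8 one-colour arrays: 3 for the wildtype group and 5 for the neoplasia group. The neoplasia mice carry the genotype given as Pgrcre/+mPgrLsL/+ in the sample labels and as Pgrcre/+PgrBLsL/+ in the study design, that is, cre at 1 allele of the progesterone receptor locus together with a receptor transgene that is silent until Cre removes a stop cassette. Cre is therefore driven by the Pgr promoter, in cells that use it. The controls are labelled wildtype, without the Cre allele, and the labels give no cycle stage and no tumour cell content. Whether the arrays of a group are different animals is not stated, and the p-values below speak only of the variation among these 8 RNA samples. The comparison addresses how the RNA profile of these neoplasias differs from that of the cycling ovary.

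P450 enzymes are heme proteins of the endoplasmic reticulum or the mitochondrion that insert an oxygen atom into their substrate. Microsomal members receive electrons from the reductase Por or from cytochrome b5, and mitochondrial members from Fdxr through Fdx1. Families 1 to 3 are best known for the oxidation of drugs and toxicants in the liver, family 4 for the oxidation of fatty acids and eicosanoids, and other families for single steps of sterol, bile acid, vitamin D and retinoic acid metabolism. In the ovary the enzymes of this group are far less studied than those of steroid synthesis.

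Levels below are log2 of the processed intensity minus the log2 of the array's 75th percentile, so 0 is the intensity of the 75th percentile spot. Probes differ in brightness, so a level is compared between arrays and never between genes. A probe was tested where the scanner software called it well above background on at least 3 arrays. Below that call a value has no order: the lowest level among probes well above background lay between -5.82 and -5.10 on the wildtype arrays and between -5.21 and -4.36 on the neoplasia arrays. The 75th percentile itself was 462 to 515 intensity units in wildtype and 309 to 429 in neoplasia. One probe of Pgr was at -7.22 to -4.19 in wildtype and 3.12 to 4.88 in neoplasia, and its other probe at -4.96 to -2.05 and -7.38 to -6.58. Neoplasia 1 to 4 lay in row 1 of the slide, and neoplasia 5 and the wildtype arrays in row 2. Of the ovarian markers, 10 of 10 for oocytes and 7 of 10 for granulosa cells fell in the neoplasias, beside 13.5% of all features tested. All 10 oocyte markers and all 10 granulosa markers were well above background on each wildtype array. On the neoplasia arrays 1 to 3 and 5 to 7 were. In bulk tissue, fewer cells of a type and less RNA per cell cannot be told apart.

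Of the 86 genes, 43 could be tested, and 15 were higher and 2 lower in the neoplasias (limma, two-sided, Benjamini-Hochberg adjusted p under 0.05 over all 25216 features tested). The 15 higher genes are 34.9% of the tested members, against 16.8% of all features, and the 2 lower genes are 4.65%, against 13.5%. The median difference was 0.51 over the tested members and 0.13 over all features. The lower genes were Cyp7b1, whose groups did not overlap, and Cyp2f2, whose groups did. Scaling moved this split: 16 were higher and 2 lower with normexp background correction and with quantile normalization. The counts were 6 and 3 in the authors' deposited values (unscaled), and 3 and 10 when arrays were scaled on their spike-in controls. The shares of all features moved too. They were 23.4% higher and 11.8% lower with normexp and 15.5% and 15.3% with quantile normalization. In the authors' values they were 6.06% and 24.3%, and with spike-in scaling 2.95% and 16.5%.

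The 17 calls rest on few arrays. The calls of Cyp27a1 and Cyp2j11 held when any 1 array was left out. The other 15 were lost without at least 1 array: 15 were lost without wildtype 1, 13 without wildtype 2 and 11 without wildtype 3, and 5, 2, 8, 6 and 2 without neoplasia 1 to 5. Blocking on slide row left none of the 17. In that fit, as on row 2 alone, neoplasia 5 by itself carries the group difference. The median difference of the tested members was 0.36 in both. Slide row and group can hardly be told apart. Each of the 17 kept its direction in every setting tried, except Cyp4f16, which turned with spike-in scaling. Spike-in scaling kept the calls of Cyp27a1, Cyp2d10, Cyp2f2, Cyp2j11 and Cyp7b1 and lost the other 12.

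**Figure D1:**
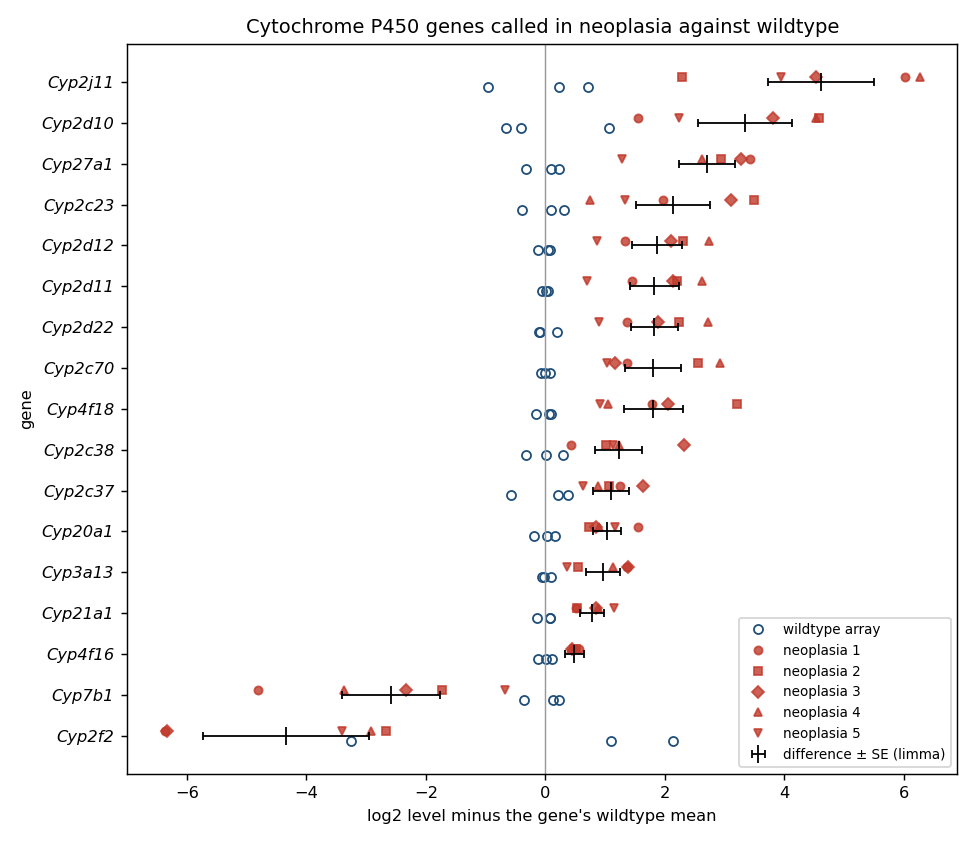
Log2 level of each called P450 gene on each array, minus the gene's mean over the 3 wildtype arrays (open circles, wildtype; filled symbols, neoplasia 1 to 5; black bars, limma difference with its standard error). The 15 genes above Cyp7b1 have every neoplasia array above every wildtype array, and for Cyp2f2 1 wildtype array lies among the neoplasia arrays. The genes were picked by their calls, and the share of all features without overlap was not counted.

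Several Cyp2d genes, microsomal enzymes related to human CYP2D6, rose. Of 9 members on the array 5 were tested, and 4 of them rose by 1.82 to 3.34 on the log2 scale, where 16.8% of all features rose. Cyp2d11 was at 1.84, 1.81 and 1.74 on wildtype 1 to 3 and at 3.25, 4.0, 3.94, 4.43 and 2.5 on neoplasia 1 to 5. Every neoplasia array was above the wildtype arrays, which hardly differed among themselves. Its difference was 1.83 ± 0.41 (SE), or 3.55-fold (limma adjusted p = 0.0148).

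Cyp2d12 was at -0.52, -0.31 and -0.35 in wildtype and at 0.94, 1.91, 1.71, 2.36 and 0.47 in neoplasia (difference 1.87 ± 0.42 SE, limma adjusted p = 0.0141). Cyp2d22, the mouse gene usually set beside CYP2D6, was at -1.03, -0.75 and -1.03 in wildtype and at 0.44, 1.30, 0.94, 1.80 and -0.03 in neoplasia (1.82 ± 0.40 SE, limma adjusted p = 0.0130). For Cyp2d11, Cyp2d12 and Cyp2d22 the neoplasias stood in one order, with neoplasia 4 highest, followed by 2, 3 and 1, and with neoplasia 5 lowest. Cyp2d10 was at -5.39, -3.91 and -5.64 in wildtype, well above background on wildtype 2 alone, and at -3.42, -0.40, -1.17, -0.45 and -2.74 in neoplasia (3.34 ± 0.79 SE, limma adjusted p = 0.0171). Its order differed, with neoplasia 2 and 4 highest and neoplasia 1 lowest. Leaving out 1 array raised the adjusted p to at most 0.0589 for Cyp2d22 (without wildtype 1), 0.0630 for Cyp2d12 (lost without wildtype 1 or 2), 0.0739 for Cyp2d10 (wildtype 1 or 3) and 0.0589 for Cyp2d11 (each wildtype array in turn). With spike-in scaling the calls of Cyp2d11, Cyp2d12 and Cyp2d22 were lost (adjusted p = 0.157, 0.134 and 0.152).

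The promoters of 3 Cyp2d genes share a run of bases near the start. These bases lie before the start, outside the RNA, so they do not show whether the probes tell the genes apart. The 100 bases before the start of Cyp2d10, Cyp2d11 and Cyp2d9 are given from RefSeq on GRCm38.p6, with the 32 bases that they share in capitals. In the 250 bases before the start, no promoter of the table outside these 3 holds that run. Cyp2d10 lies at chr15:82407195-82407294 on the minus strand, Cyp2d11 at chr15:82394023-82394122 on the minus strand and Cyp2d9 at chr15:82452277-82452376 on the plus strand.
Cyp2d10: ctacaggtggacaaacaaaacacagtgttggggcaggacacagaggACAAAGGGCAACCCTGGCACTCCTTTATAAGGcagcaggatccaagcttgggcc
Cyp2d11: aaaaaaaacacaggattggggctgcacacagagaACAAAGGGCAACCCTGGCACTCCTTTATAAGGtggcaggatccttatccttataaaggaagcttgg
Cyp2d9: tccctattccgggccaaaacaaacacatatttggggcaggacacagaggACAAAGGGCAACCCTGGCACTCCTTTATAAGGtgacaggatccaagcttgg
The shared run includes a TATA-like stretch at its end. Cyp2d9 has the same run, yet was well above background on wildtype 2 (-4.80) and neoplasia 2 (-3.03) and on no other array. Probe sequences were not used here, so signal of one Cyp2d, Cyp2c, Cyp3a or Cyp4a gene cannot be told apart from that of a close copy. Of the other Cyp2d members, Cyp2d26 is described with neoplasia 2, and Cyp2d13, Cyp2d34 and Cyp2d40 were well above background on 1 or 2 arrays.

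Among enzymes of sterol and bile acid metabolism, Cyp27a1 rose and Cyp7b1 fell. Cyp27a1, the mitochondrial enzyme that hydroxylates the cholesterol side chain, was at -2.09, -1.97 and -2.52 on wildtype 1 to 3 and at 1.23, 0.75, 1.08, 0.43 and -0.91 on neoplasia 1 to 5. Each neoplasia array was above each wildtype array, with neoplasia 5 the closest. The difference was 2.71 ± 0.47 (SE), or 6.54-fold (limma adjusted p = 0.00526), and the adjusted p was 0.0268 at most when 1 array was left out.

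Cyp7b1, which hydroxylates the oxysterol that Cyp27a1 makes, was at 0.22, 0.31 and -0.27 in wildtype and at -4.73, -1.64, -2.25, -3.29 and -0.59 in neoplasia. All neoplasia arrays were below the wildtype arrays, and neoplasia 1 was not well above background. The difference was -2.59 ± 0.82 (SE; limma adjusted p = 0.0453), and the adjusted p rose to 0.134 at most when 1 array was left out, with the call lost without each wildtype array and without neoplasia 3 or 4. Cyp39a1, an oxysterol hydroxylase, was at 1.26, 1.95 and 0.63 in wildtype and at 1.01, 5.09, 4.26, 2.61 and 2.41 in neoplasia. Only neoplasia 1 overlapped the wildtype arrays, and the difference of 1.80 ± 0.86 (SE) did not pass (limma adjusted p = 0.142) but passed without neoplasia 1. Cyp46a1, the cholesterol hydroxylase known from neurons, was at -1.82, -2.48 and -3.22 in wildtype and between -1.88 and -1.41 in neoplasia (0.92 ± 0.31 SE, limma adjusted p = 0.0533), and passed with normexp (0.0263), with quantile normalization (0.0253), over features above background on all arrays (0.0449) and without wildtype 1 (0.0331). Cyp7a1 and Cyp8b1, which act in the classical bile acid pathway of the liver, were well above background on no array.

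Cyp27a1 is also strongly expressed by macrophages, and macrophage markers also differed between the groups. All 7 macrophage markers were well above background on every array, and 6 of 7 rose, beside 16.8% of all features. Their summed level (the 75th percentile counted as 1) was 30.0 to 36.6 in wildtype and 84.0 to 156 in neoplasia. Among the neoplasias the sum and Cyp27a1 did not share an order: neoplasia 5, lowest for Cyp27a1, had a sum of 111, and neoplasia 3, at 1.08 for Cyp27a1, had the lowest, 84.0. The part of these cells in the change was not tested. Cyp4f18, which oxidizes leukotriene B4 in myeloid cells, was at 0.36, 0.10 and 0.33 in wildtype and at 2.05, 3.48, 2.31, 1.31 and 1.18 in neoplasia. All 5 neoplasias were above wildtype. Neoplasia 2 was highest both for Cyp4f18 and in the macrophage sum (156), whereas neoplasia 3, second for Cyp4f18, had the lowest sum of the 5 (84.0) and neoplasia 5, lowest for Cyp4f18, had 111. Its difference was 1.80 ± 0.49 (SE; limma adjusted p = 0.0286), and the call was lost without each wildtype array and without neoplasia 3, with an adjusted p of at most 0.0967.

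**Figure D2:**
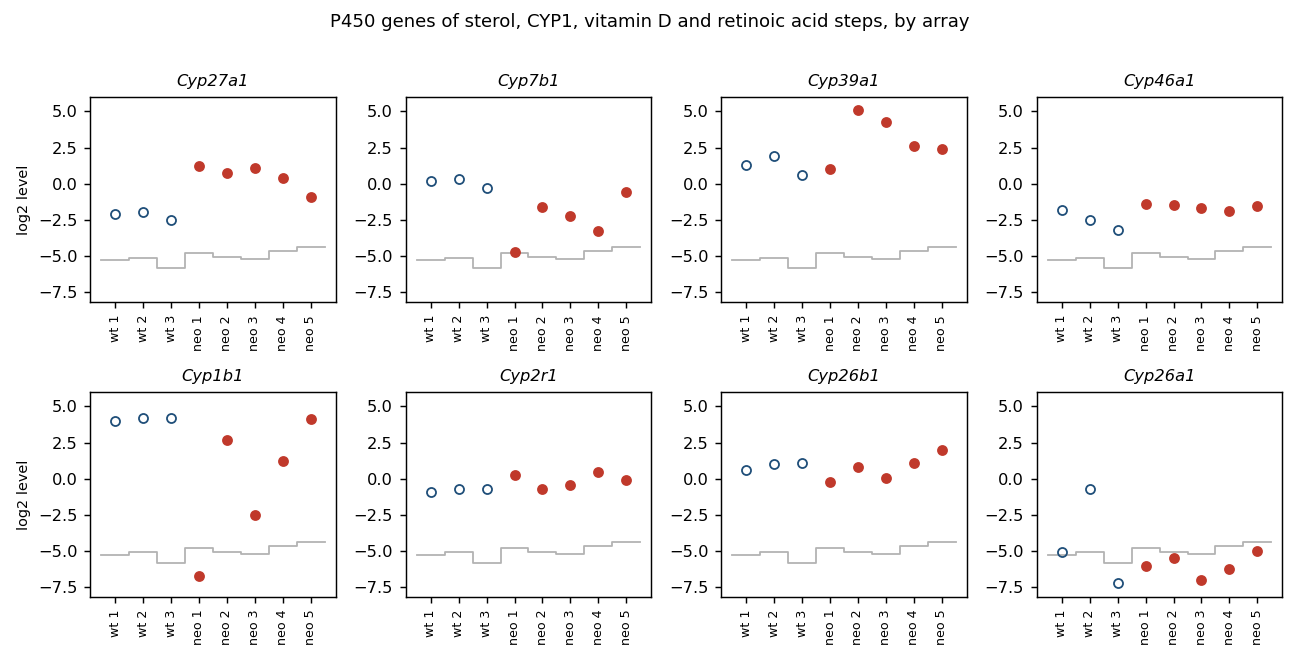
Log2 level of 8 P450 genes on each array (open circles, wildtype 1 to 3; filled circles, neoplasia 1 to 5; grey line, lowest level of probes well above background on that array). Cyp27a1 lies above wildtype and Cyp7b1 below it on all 5 neoplasia arrays, whereas Cyp1b1 runs from -6.75 on neoplasia 1 to 4.12 on neoplasia 5.

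The Cyp4f genes hydroxylate the end of fatty acid chains. Of 6 tested, Cyp4f18 and Cyp4f16 rose and none fell, beside 16.8% and 13.5% of all features. Cyp4f16 was at -0.67, -0.57 and -0.81 in wildtype and between -0.25 and -0.11 in neoplasia, a difference of 0.49 ± 0.16 (SE; limma adjusted p = 0.0492). This small rise became -0.11 with spike-in scaling and was lost without each array in turn other than neoplasia 5. Cyp4f13 was at 1.41 to 1.66 in wildtype and 0.77 to 2.05 in neoplasia, and Cyp4f17 at 0.17 to 0.47 and -0.21 to 1.07 (limma adjusted p = 0.461 and 0.956). Cyp4f14 was at 0.27, 0.46 and 0.79 in wildtype and at -5.00, 1.40, -1.91, -2.0 and -2.81 in neoplasia. Neoplasia 2 was above the wildtype arrays and the other neoplasias below them, so the difference of -2.57 ± 1.18 (SE) did not pass (limma adjusted p = 0.126). Cyp4f15 was as varied, from -5.82 on neoplasia 1 to 0.14 on neoplasia 2, with -3.24 to -1.39 in wildtype (limma adjusted p = 0.782). Cyp4v3, a fatty acid hydroxylase of the eye and other tissues, was at 0.23 to 0.61 in wildtype and 0.03 to 1.84 in neoplasia (limma adjusted p = 0.364).

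Of the Cyp2c genes, many of which form epoxides from arachidonic acid, 5 of 13 were tested and 4 rose, where 16.8% of all features rose. Cyp2c70, the mouse liver enzyme that makes muricholic bile acids, was at -2.04, -2.19 and -2.12 in wildtype and at -0.75, 0.44, -0.95, 0.81 and -1.09 in neoplasia. All 5 neoplasias were above wildtype, neoplasia 2 and 4 most. The difference was 1.81 ± 0.46 (SE; limma adjusted p = 0.0233), with an adjusted p of at most 0.0807 and the call lost without any 1 of the wildtype arrays.

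Cyp2c23, an epoxygenase known from the kidney, was well above background on no wildtype array and on 4 of 5 neoplasia arrays. It was at -5.02, -4.80 and -5.51 in wildtype and at -3.13, -1.61, -2.0, -4.37 and -3.78 in neoplasia, 4.39-fold higher (limma adjusted p = 0.0345). For a gene well above background on no array of a group, a bound was taken. It uses, on each array of that group, the higher of the probe's own signal and the lowest signal of probes well above background. For Cyp2c23 the probe's own signal was higher on each wildtype array, so the bound equals the estimate and is not a lower limit. The call of Cyp2c23 was lost without each wildtype array and without neoplasia 1 or 3 (adjusted p at most 0.107).

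Cyp2c37 and Cyp2c38 were dim. Cyp2c37 rose from -3.86 ± 0.51 (SD, n = 3) to -2.76 ± 0.38 (SD, n = 5), and Cyp2c38 from -3.83 ± 0.31 to -2.60 ± 0.69 (limma adjusted p = 0.0301 and 0.0465). Each has another probe that was well above background on no array. Both calls were lost without any 1 wildtype array, Cyp2c37 also without neoplasia 1 or 3 and Cyp2c38 without neoplasia 2, 4 or 5, with adjusted p of at most 0.105 and 0.165. Cyp2c55 was at -2.94 to -2.69 in wildtype and -3.07 to -1.87 in neoplasia (limma adjusted p = 0.284).

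Of the Cyp2j genes, epoxygenases of arachidonic acid, Cyp2j11 alone rose, and it had the largest difference of the 15 higher genes. It was well above background on no wildtype array, at -5.66, -6.15 and -7.33, and on all 5 neoplasia arrays, at -0.36, -4.09, -1.85, -0.11 and -2.44. It was at least 12.4-fold higher in the neoplasias (limma adjusted p = 0.00818), and the adjusted p was 0.0363 at most when 1 array was left out. Cyp2j11 is known mainly from kidney, and kidney tubule markers moved with the groups. Of 4 tested, Slc34a1 rose by 1.26 and Slc22a6 by 0.87 (limma adjusted p = 0.0196 and 0.0410). None of the 4 fell, and of all features 16.8% rose and 13.5% fell. Umod, the defining marker, was well above background on no array, and the summed level of the 6 markers was 0.218 to 0.267 in wildtype and 0.381 to 1.44 in neoplasia. Their part in the rise of Cyp2j11 was not tested.

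The other Cyp2j genes pointed the other way or varied. Cyp2j6 was at -1.27, -1.24 and -1.0 in wildtype and at -3.33, -3.62, -1.57, -1.68 and -1.42 in neoplasia. The groups did not overlap, neoplasia 1 and 2 being lowest, but the difference of -1.15 ± 0.56 (SE) did not pass (limma adjusted p = 0.146). Cyp2j9 was at -0.30 to 0.21 in wildtype and ran from -5.51 on neoplasia 1 to 0.06 on neoplasia 3 (limma adjusted p = 0.138). Cyp2j8 was at -0.89 to -0.55 and -2.88 to -0.18, and Cyp2j13 at -4.26 to -4.12 and -6.94 to -3.85 (limma adjusted p = 0.676 and 0.434).

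Cyp20a1, Cyp3a13 and Cyp21a1 also rose. Cyp20a1, an enzyme without a settled substrate, was at -0.95, -1.17 and -0.81 in wildtype and at 0.58, -0.25, -0.13, -0.08 and 0.19 in neoplasia (1.04 ± 0.23 SE, limma adjusted p = 0.0146). Each neoplasia array was above each wildtype array. The call was lost without wildtype 1 or 2 (adjusted p at most 0.0694). Cyp3a13, a drug-metabolizing enzyme of liver and gut, rose from -4.19 ± 0.08 (SD, n = 3) to -3.23 ± 0.48 (SD, n = 5; limma adjusted p = 0.0371, at most 0.125 when 1 array was left out, with the call lost without each wildtype array and without neoplasia 1, 3 or 4). Cyp21a1, the steroid hydroxylase of adrenal corticosteroid synthesis, rose from -3.52 ± 0.12 (SD, n = 3) to -2.74 ± 0.27 (SD, n = 5; limma adjusted p = 0.0255, at most 0.0899, lost without each wildtype array and without neoplasia 3 or 4), and its other probe was well above background on no array.

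Cyp11b1, which makes corticosterone, was at -5.06, -2.55 and -3.79 in wildtype and at -3.27, -1.90, -3.88, -0.28 and -2.68 in neoplasia (limma adjusted p = 0.232). The groups overlapped, with neoplasia 4 highest. Cyp11b2, the aldosterone synthase that marks the adrenal cortex, was well above background on no array. Of 5 tested adrenal cortex markers, among them Cyp11b1 and Cyp21a1, 2 rose and 1 fell, beside 16.8% and 13.5% of all features. The summed level of the 6 markers was 5.90 to 7.52 in wildtype and 0.572 to 2.82 in neoplasia. That sum follows Kcnk3, the marker that fell, at 2.5 to 2.85 in wildtype and -2.65 to 0.13 in neoplasia.

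The CYP1 enzymes are the classical targets of the aryl hydrocarbon receptor, which binds the core GCGTG. Cyp1b1, which oxidizes estrogens and aromatic hydrocarbons, was at 3.99, 4.20 and 4.21 in wildtype and at -6.75, 2.66, -2.52, 1.20 and 4.12 in neoplasia. The wildtype arrays agreed closely, neoplasia 5 matched them, and neoplasia 1 was not above background. With this spread the difference of -4.39 ± 2.22 (SE) did not pass (limma adjusted p = 0.160), and it ran from -5.49 to -2.77 when 1 array was left out. It passed with spike-in scaling (adjusted p = 0.0232) and was -0.02 on slide row 2 alone. The summed level of 7 stroma markers was 196 to 324 in wildtype and 26.1, 18.6, 27.9, 78.6 and 371 on neoplasia 1 to 5. Among the neoplasias both the sum and Cyp1b1 were highest on neoplasia 5. That sum was lowest on neoplasia 2, where Cyp1b1 was at 2.66. None of the 7 was called, beside 30.3% of all features. Their part in the levels of Cyp1b1 was not tested. Cyp1a1 and Cyp1a2 were well above background on no array. The core is shown in capitals in 60 bases of both promoters that hold it, from RefSeq on GRCm38.p6, at chr9:57697534-57697593 on the plus strand for Cyp1a1 and chr17:79715103-79715162 on the minus strand for Cyp1b1, where it reads from the opposite strand.
Cyp1a1: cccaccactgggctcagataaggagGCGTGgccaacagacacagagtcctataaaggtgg
Cyp1b1: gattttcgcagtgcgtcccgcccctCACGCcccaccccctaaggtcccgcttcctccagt
Either strand of the 250 bases before the start held GCGTG in 28.2% of all 32851 promoters and in 13 of the 66 members with a promoter in the table (19.7%). Cyp20a1 and Cyp4f16 were the called genes among the 13. The receptor genes themselves did not pass: Ahr was at 0.69 to 0.83 in wildtype and -0.20 to 1.29 in neoplasia, and Arnt at 1.71 to 1.74 and 1.13 to 1.81 (limma adjusted p = 0.856 and 0.390). Ahrr, the repressor that the receptor induces, fell from -2.69 ± 0.14 (SD, n = 3) to -5.09 ± 1.00 (SD, n = 5; limma adjusted p = 0.0140, 0.0571 at most and lost without wildtype 1 or 2). Only 2 of the 5 neoplasia arrays were well above background for Ahrr, so its neoplasia mean rests in part on values without order. Over the alternative settings its difference ran from -3.93 to -0.49.

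None of the P450 genes listed here for vitamin D (Cyp2r1, Cyp24a1 and Cyp27b1) or retinoic acid (Cyp26a1, Cyp26b1 and Cyp26c1) passed. Only Cyp2r1 and Cyp26b1 of them were tested, and Cyp27a1 was listed with the sterol enzymes. Cyp2r1, which begins vitamin D activation, was at -0.94, -0.73 and -0.72 in wildtype and at 0.23, -0.70, -0.46, 0.43 and -0.12 in neoplasia (0.67 ± 0.28 SE, limma adjusted p = 0.103), with neoplasia 2 just above the wildtype arrays. Cyp24a1, which degrades the hormone, was well above background on no array, and Cyp27b1, which completes it, on 2 wildtype arrays. Cyp26b1, which degrades retinoic acid, was at 0.59, 1.02 and 1.11 in wildtype and at -0.26, 0.81, 0.02, 1.05 and 2.01 in neoplasia (-0.18 ± 0.49 SE, limma adjusted p = 0.794). Cyp26a1 was well above background on wildtype 2 alone, at -0.68, with -7.19 to -4.99 elsewhere, and Cyp26c1 on no array. Of the retinoid partners, Aldh1a2, which makes retinoic acid, rose by 1.93 (limma adjusted p = 0.0404), and its call was lost without each wildtype array and without neoplasia 1, 3 or 4 (adjusted p at most 0.119). Crabp1, a carrier of retinoic acid, fell (limma adjusted p = 0.00133) to below background on all 5 neoplasias and was at least 1.09-fold lower, but with normexp its difference was 0.03.

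Several P450 genes were set by 1 or 2 arrays, and are described without a test because they were chosen after their values were seen. On neoplasia 2, 54 of the 86 genes were well above background, against 31 to 46 on the other arrays. Over all arrays the number was 42.3 ± 3.2 (SD, n = 3) for wildtype arrays and 42.0 ± 8.3 (SD, n = 5) for neoplasia arrays (exact permutation test over 56 splits, two-sided, p = 0.946). On neoplasia 2, 7 genes lay at least 2 log2 units above every other array, against 1 on neoplasia 3, 1 on wildtype 2 and none on the other arrays.

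Of the Cyp4a genes, fatty acid hydroxylases that peroxisome proliferators induce in liver and kidney, 4 of 5 were among these 7. Cyp4a10 was at 0.61 on neoplasia 2 and between -3.85 and -2.77 elsewhere, and Cyp4a31 at 0.58 against -4.17 to -3.01. Cyp4a14 was at -0.36 there and at -4.61 or less elsewhere, and Cyp4a32 at 0.02 against -5.40 or less. Cyp2d26 was at 0.52 on neoplasia 2 and between -4.80 and -4.03 on the other 7 arrays. The liver gene Cyp3a11 was at -2.48 on neoplasia 2 and at -4.57 or less elsewhere by the probe that stands for it, and its other probe was at -0.39 there and well above background nowhere else. Cyp2c68 was at -2.55 against -6.30 or less. Cyp4a29 was the exception on neoplasia 3, at -4.07 against -6.22 or less.

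Markers of hepatocytes were highest on the same array. All 10 were well above background on neoplasia 2, against 7 to 9 on the other neoplasias and 6 on each wildtype array. Their summed level was 528 on neoplasia 2, 62.7, 88.6, 15.9 and 32.7 on neoplasia 1, 3, 4 and 5, and 3.99 to 8.18 in wildtype. The defining marker Alb was at 6.24 on neoplasia 2, between -6.70 and 1.0 on the other neoplasias and below background in wildtype. Tat, another defining liver gene, fell in the neoplasias and was at -2.97 on neoplasia 2, its lowest level. Of 9 tested hepatocyte markers, 2 rose, Fgb and Apoa1, and Tat fell, beside 16.8% and 13.5% of all features. The part of such cells in the values of neoplasia 2 was not tested. Without neoplasia 2, 13 members were higher and 3 lower, beside 16.1% and 12.9% of all features in that fit.

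**Figure D3:**
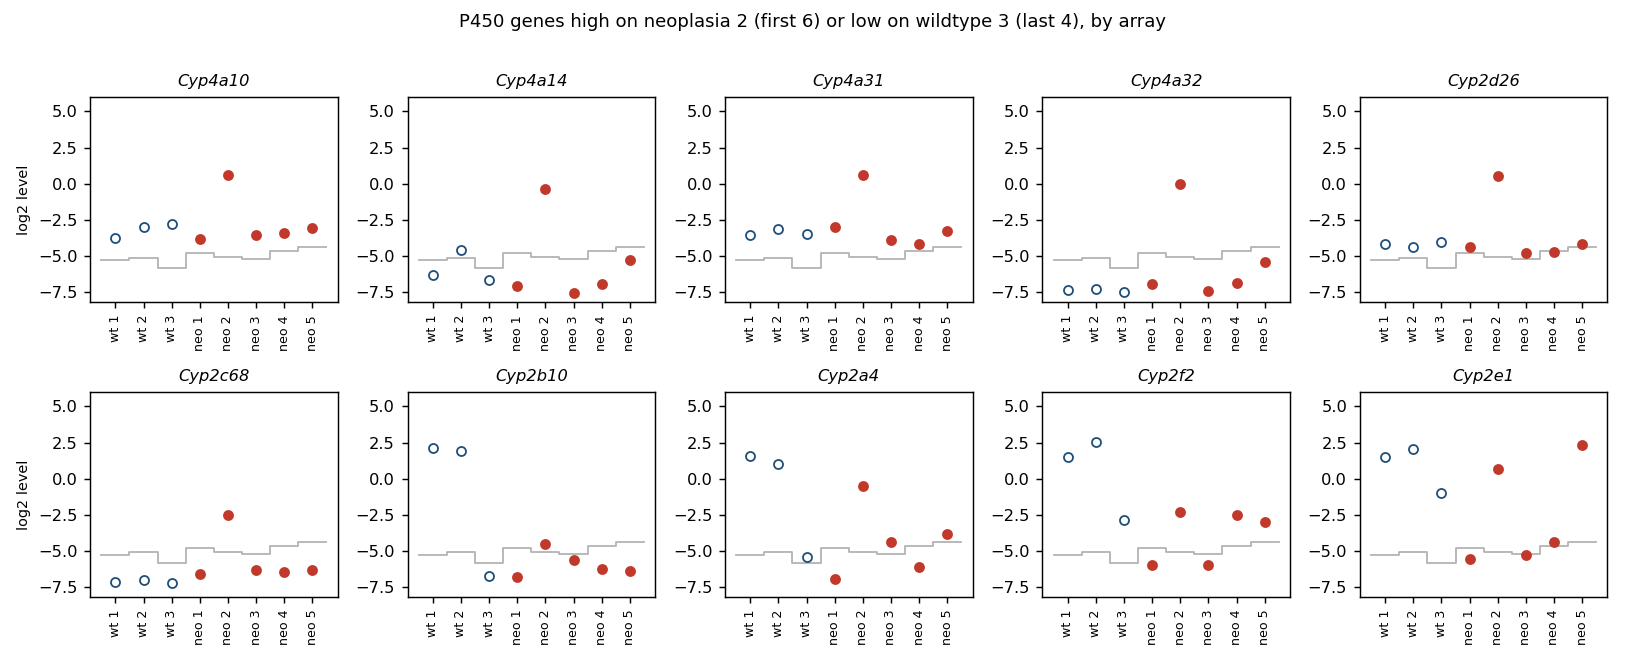
Log2 level of 10 P450 genes on each array (open circles, wildtype 1 to 3; filled circles, neoplasia 1 to 5; grey line, lowest level of probes well above background on that array). The first 6 genes are at -2.55 to 0.61 on neoplasia 2 and at least 3.39 lower on each other array, and the last 4 are lower on wildtype 3 than on wildtype 1 and 2.

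**Figure D4:**
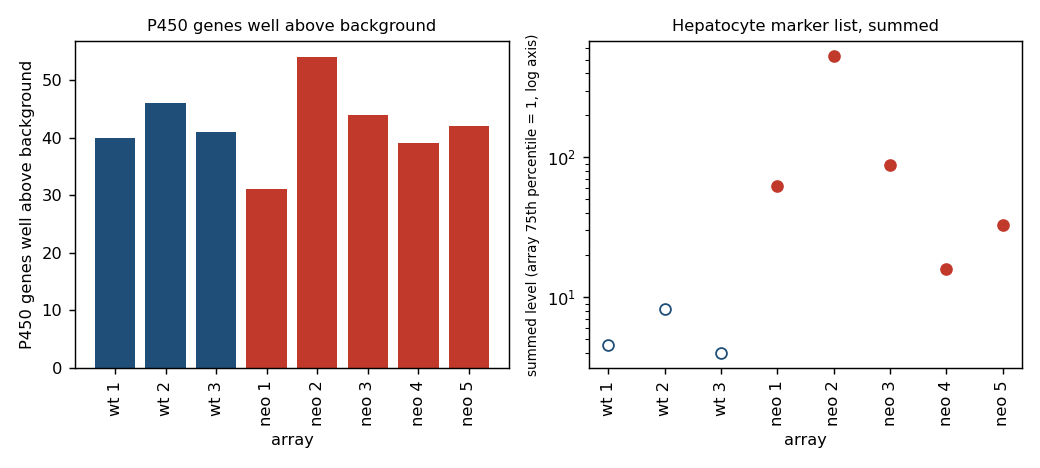
Left, number of the 86 P450 genes well above background on each array (bars). Right, summed level of the 10 hepatocyte markers on a log axis, with the array's 75th percentile as 1 (open circles, wildtype; filled circles, neoplasia). Neoplasia 2 has the most P450 genes, 54, and the highest marker sum, 528.

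The promoters of the members were searched for CAAAGTCCA, with the values of neoplasia 2 known. CAAAGTCCA is a binding motif of HNF4 alpha, a nuclear receptor of liver, gut and kidney epithelium. On either strand of the 250 bases before the start it was found in 126 of 32851 promoters (0.384%) and in 7 of the 66 members with a promoter in the table. Cyp4a10, Cyp4a14 and Cyp4a31 have no entry there. Of the 7 genes that stood above every other array on neoplasia 2, Cyp2c68 and Cyp3a11 hold the motif. All 7 matches read in the direction of the gene, 64 to 125 bases before the start. They are shown in 60 bases each, from RefSeq on GRCm38.p6, with the motif in capitals.
Cyp2c65: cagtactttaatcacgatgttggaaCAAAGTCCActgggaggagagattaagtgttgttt
Cyp2c67: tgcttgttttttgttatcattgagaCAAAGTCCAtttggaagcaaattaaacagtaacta
Cyp2c68: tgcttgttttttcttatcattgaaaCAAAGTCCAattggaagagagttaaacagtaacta
Cyp2c70: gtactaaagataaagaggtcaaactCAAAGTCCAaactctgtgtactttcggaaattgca
Cyp3a11: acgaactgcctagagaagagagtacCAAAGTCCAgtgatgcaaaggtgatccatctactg
Cyp3a16: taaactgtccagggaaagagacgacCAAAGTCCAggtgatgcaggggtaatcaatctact
Cyp8b1: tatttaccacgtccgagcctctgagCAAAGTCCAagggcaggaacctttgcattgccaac
These stretches lie at chr19:39060865-39060924 (plus strand, Cyp2c65), chr19:39649133-39649192 (minus, Cyp2c67), chr19:39741144-39741203 (minus, Cyp2c68), chr19:40187316-40187375 (minus, Cyp2c70), chr5:145879929-145879988 (minus, Cyp3a11), chr5:145469788-145469847 (minus, Cyp3a16) and chr9:121916338-121916397 (minus, Cyp8b1). The Cyp2c67 and Cyp2c68 stretches are close copies, and so are those of Cyp3a11 and Cyp3a16, so the genes of either pair are not separate examples.

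Of these 7 genes, 6 were well above background on neoplasia 2, Cyp8b1 being the exception, against 1 or 2 of 7 on each other array. Of the 59 members whose promoter lacks the motif, 37 were well above background on neoplasia 2 and 21 to 34 on the others. Cyp2c65, at -4.83, Cyp2c68 and Cyp3a16, at -3.26, were well above background on neoplasia 2 and nowhere else, and Cyp2c67 on neoplasia 2 (-3.48) and 3 (-4.31). Only Cyp2c70 and Cyp3a11 of the 7 were tested, and Cyp2c70 was called. Other letters searched in the same windows were the variant CAAAGTTCA, found in 1 of 66 members (Cyp26a1) and 0.335% of all promoters. The nuclear receptor core AGGTCA was in 16 members and 14.0% of all promoters, AGTTCA in 8 members and 11.8%, and TGAAGTTC in 1 member (Cyp4v3) and 0.889%. The direct repeat of the core with the base A between was in no member and 0.0152% of all, and repeats with another base between were not searched. AGTTCA lies within CAAAGTTCA. These matches describe letters and not binding.

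Hnf4a, the gene of that receptor, was itself higher in the neoplasias. It was at -4.33, -3.15 and -5.68 in wildtype and at -0.28, 1.79, 0.29, -1.35 and -1.78 in neoplasia. Every neoplasia array was above the wildtype arrays, with neoplasia 2 highest. The difference was 4.12 ± 0.86 (SE), or 17.4-fold (limma adjusted p = 0.0112, at most 0.0467 when 1 array was left out). Of 16 transcription factors and sensors known to act on P450 genes, Hnf4a among them, 7 rose and 1 fell, beside 16.8% and 13.5% of all features. Ppara, through which fatty acids and fibrates act on Cyp4a genes, was at 0.54, 0.39 and 0.65 in wildtype and at 3.85, 4.91, 3.92, 4.27 and 1.74 in neoplasia (3.21 ± 0.62 SE, limma adjusted p = 0.00831). All 5 neoplasias were above wildtype, while Cyp4a10 and Cyp4a31, the tested Cyp4a genes, were above wildtype on neoplasia 2 or on neoplasia 1 and 2 (limma adjusted p = 0.703 and 0.632). Nr1h4, the bile acid receptor, rose by 2.57 ± 0.46 (SE; limma adjusted p = 0.00600). The oxysterol receptor Nr1h3 and the partner receptor Rxra rose by 1.22 and 1.17 (limma adjusted p = 0.0495 and 0.0265). The calls of Hnf4a, Ppara and Nr1h4 held without any 1 array, and all were lost with slide row as a block (adjusted p = 0.266, 0.148 and 0.170). That of Nr1h3 was lost without each wildtype array and without neoplasia 1 or 3 (adjusted p at most 0.133), and that of Rxra without each wildtype array and without neoplasia 4 (at most 0.0939). Nr1i2 and Nr1i3, the xenobiotic receptors that act on Cyp3a and Cyp2b genes, did not pass (limma adjusted p = 0.126 and 0.809).

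A second group of genes separated wildtype 3 from wildtype 1 and 2. It holds Cyp2b10, Cyp2b9, Cyp2a4, Cyp2e1 and Cyp2f2, which were at least 2 log2 units lower on wildtype 3 than on both others. Cyp2b10, a phenobarbital-inducible enzyme of liver, was at 2.14 and 1.90 on wildtype 1 and 2, at -6.71 on wildtype 3 and between -6.81 and -4.50 in neoplasia, where neoplasia 2 alone was well above background. Its difference of -5.02 ± 1.87 (SE) did not pass (limma adjusted p = 0.0724). Cyp2a4, a testosterone hydroxylase, was at 1.58 and 1.03, at -5.42 on wildtype 3 and between -6.92 and -0.51 in neoplasia (limma adjusted p = 0.194). For both, wildtype 3 lay within the range of the neoplasias but was not well above background, where a value has no order.

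Cyp2f2, the club cell enzyme that activates naphthalene, was at 1.49, 2.53 and -2.86 in wildtype and at -5.99, -2.28, -5.95, -2.53 and -3.02 in neoplasia. Wildtype 3 lay among the neoplasias. On neoplasia 1 and 3 Cyp2f2 was not well above background, so its difference rests in part on values without order. The difference was -4.34 ± 1.40 (SE; limma adjusted p = 0.0467), and it was -5.97 without wildtype 3 and -3.27 at the smallest when another array was left out, with the call lost without wildtype 1 or 2 or neoplasia 1, 3, 4 or 5 (adjusted p at most 0.169). Cyp2e1, the ethanol-oxidizing enzyme, was at 1.5, 2.06 and -0.98 in wildtype and at -5.54, 0.70, -5.30, -4.39 and 2.35 in neoplasia (limma adjusted p = 0.223). Its neoplasias split into high (2 and 5) and low (1, 3 and 4) arrays. Epithelial markers were lower on the same wildtype array: their summed level was 42.4 and 74.6 on wildtype 1 and 2 and 13.0 on wildtype 3, and Muc1, a marker of duct epithelium, was below background there. On the neoplasias, where Cyp2b10 and Cyp2f2 were low, the epithelial sum was 179 to 768, with Krt8 and Krt18 higher and Epcam, Cdh1 and Cldn7 lower. The airway club cell markers summed to 0.0727 to 0.0942 in wildtype and 0.144 to 2.83 in neoplasia, with Sftpb well above background on no array. The part of such cells in these values was not tested.

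The remaining tested members did not pass. Cyp2s1, an extrahepatic enzyme of epithelia, was at 4.06, 3.97 and 2.80 in wildtype and at 0.78, 0.80, 1.30, 3.46 and 2.60 in neoplasia (-1.82 ± 0.67 SE, limma adjusted p = 0.0703). It passed with quantile normalization (adjusted p = 0.0404), spike-in scaling (0.00922), the authors' values (0.0347), the replicate block and without neoplasia 4 (0.0277). Neoplasia 1 to 3 and neoplasia 5 were below every wildtype array, and neoplasia 4 was above wildtype 3. Cyp4b1, which oxidizes fatty acids and furans in lung, was at -0.78, -0.39 and -1.33 in wildtype and at -6.95, -1.76, -4.46, -4.35 and -1.01 in neoplasia (-2.88 ± 1.22 SE, limma adjusted p = 0.105), where neoplasia 5 was within the wildtype range. Cyp2t4 was at -3.68 to -3.42 and -3.81 to -2.79 (limma adjusted p = 0.681).

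Of the 43 members not tested, 22 were well above background on no array. Beside those already named these were Cyp2a22, Cyp2b19, Cyp2b23, Cyp2c39, Cyp2c50, Cyp2c54, Cyp2c66, Cyp2g1, Cyp2j5, Cyp2u1, Cyp3a57, Cyp4f37, Cyp4f39, Cyp4f40 and Cyp4x1. The other 21 were well above background on 1 or 2 arrays. Among them Cyp2a12, a liver enzyme, was at -2.06 on neoplasia 2 and -3.41 on neoplasia 4, and Cyp2c29 at -2.59 and -2.88 on neoplasia 2 and 3. Cyp2b13, Cyp2w1, Cyp3a25, Cyp3a44 and Cyp3a59 complete this group.

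Of 9 electron transfer partners of P450 enzymes, 2 rose and 1 fell, shares near those of all features (16.8% and 13.5%). Cyb5a, cytochrome b5, was at 6.21, 6.09 and 6.69 in wildtype and at 7.90, 7.57, 8.14, 7.76 and 6.87 in neoplasia (1.32 ± 0.31 SE, limma adjusted p = 0.0168). Its reductase Cyb5r3 rose by 1.35 ± 0.37 (SE; limma adjusted p = 0.0301). The call of Cyb5a was lost without wildtype 1 or 2 (adjusted p at most 0.0751) and that of Cyb5r3 without each wildtype array and without neoplasia 1 (at most 0.111). Por, the main electron donor of the microsomal enzymes, was at 3.02 to 3.24 in wildtype and 3.41 to 4.46 in neoplasia, above wildtype on 5 of 5 arrays (limma adjusted p = 0.0544). Fdxr, which feeds the mitochondrial enzymes, was at 6.42, 6.49 and 6.86 in wildtype and at 3.75, 5.45, 3.50, 4.91 and 3.82 in neoplasia (-2.30 ± 0.46 SE, limma adjusted p = 0.00964, at most 0.0407 when 1 array was left out and 0.0757 with slide row as a block). It fell on all 5 arrays on which the mitochondrial enzyme Cyp27a1 rose. The steroid synthesis genes that the rule leaves out shared that fall in part: Cyp11a1 was lower by 1.64 ± 0.49 (SE) and Cyp19a1 at least 26.5-fold lower (limma adjusted p = 0.0379 and 6.88e-05), while Cyp17a1 differed by 0.30 (limma adjusted p = 0.498). The call of Cyp11a1 was lost without each wildtype array and without neoplasia 1, 3 or 5 (adjusted p at most 0.122).

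In heme synthesis and breakdown, 5 of 12 genes rose and 3 fell, beside 16.8% and 13.5% of all features. Alas1, the first enzyme of heme synthesis, was at 4.71, 4.90 and 6.16 in wildtype and at 7.41, 7.75, 6.51, 7.66 and 5.67 in neoplasia (1.75 ± 0.55 SE, limma adjusted p = 0.0441), with neoplasia 5 within the wildtype range. Fech, which inserts the iron, rose by 0.84, whereas Alad and Ppox, of the steps between, fell by 1.32 and 1.14 (limma adjusted p = 0.0277, 0.0374 and 0.0310). Hmox2 and Blvrb, of heme and bilirubin turnover, rose by 0.97 and 1.26 (limma adjusted p = 0.00728 and 0.0110). The call of Hmox2 held without any 1 array but was lost with spike-in scaling (adjusted p = 0.707), in the authors' values and with the slide row settings, and that of Blvrb was lost without wildtype 1 (adjusted p 0.0537). Those of Ppox and Fech were lost without each wildtype array and without neoplasia 3 or 4 (at most 0.123 and 0.114), that of Alad without wildtype 1 or 2 and neoplasia 3 or 4 (at most 0.138), and that of Alas1 without wildtype 1 or 2 and each of neoplasia 1 to 4 (at most 0.162). Erythrocyte markers moved with the groups: all 4 rose, beside 16.8% of all features. Their summed level was 9.05 to 27.1 in wildtype and 377 to 1716 in neoplasia. Their part in the heme genes was not tested.

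Of 4 epoxide hydrolases, which open the epoxides that Cyp2c and Cyp2j enzymes form, 1 rose and 2 fell, beside 16.8% and 13.5% of all features. Ephx2, the soluble enzyme that acts on fatty acid epoxides, was at 5.46, 4.61 and 6.03 in wildtype and at 0.73, 1.90, -0.26, -0.13 and 1.65 in neoplasia. No array overlapped, and the difference was -4.59 ± 0.58 (SE), or 24.1-fold lower (limma adjusted p = 0.00136, at most 0.00985 when 1 array was left out and 0.0556 with slide row as a block). Ephx4 fell by 2.34 and Ephx3 rose by 0.68 (limma adjusted p = 0.0445 and 0.0364), but Ephx4 was as low on wildtype 3, at -4.14, as on the neoplasias. The call of Ephx4 was lost without each array in turn other than wildtype 3 (adjusted p at most 0.164), and that of Ephx3 without each wildtype array and without neoplasia 3 or 4 (at most 0.144). Ephx1, the microsomal enzyme that acts on xenobiotics, was at 5.61 to 5.99 in wildtype and 5.24 to 6.82 in neoplasia (limma adjusted p = 0.712).

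**Figure D5:**
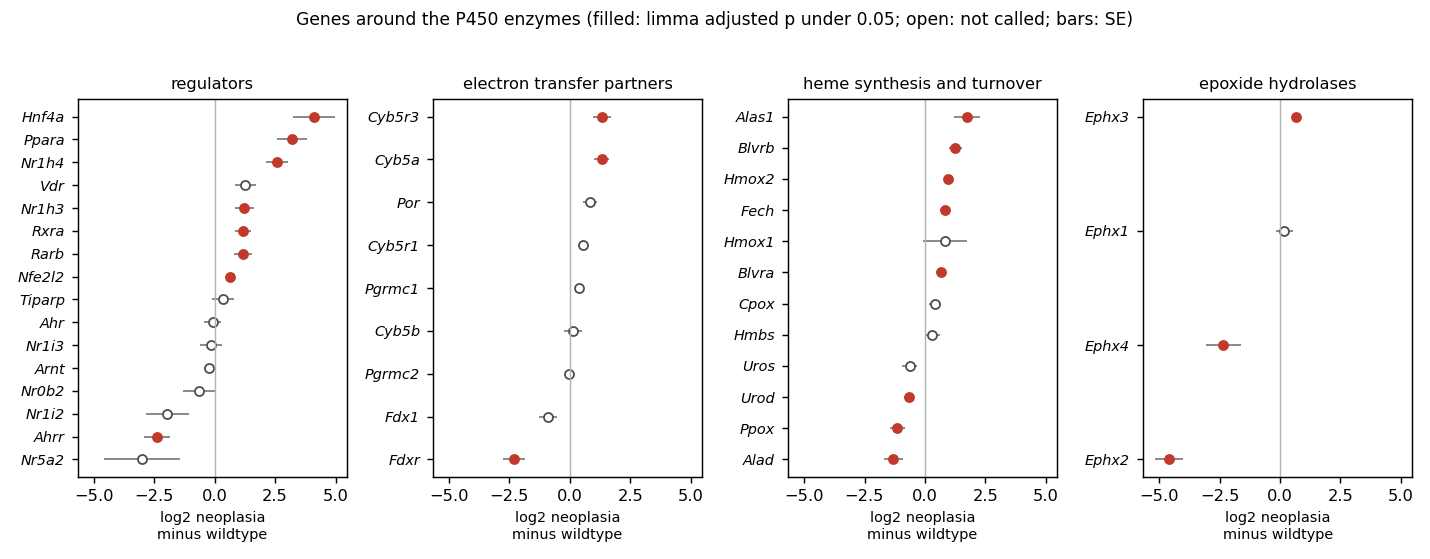
Log2 difference between neoplasia and wildtype, with its standard error, for regulators of P450 genes, electron transfer partners, genes of heme synthesis and turnover, and epoxide hydrolases (filled, limma adjusted p under 0.05; open, not called). The ends of the range are Hnf4a, higher by 4.12, and Ephx2, at -4.59.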

How the data were processed

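Per the file headers, the deposited values are processed spot intensity (linear, background-subtracted, unscaled between arrays) from Agilent Feature Extraction 11.0.1.1 with an mm9 grid. The authors' deposited value table is log2 of the mean intensity over the spots of 1 accession (all 37932 rows within 0.001), without centring. The submitters' processing notes name Partek, with no role. Here, log2 intensity minus the array's 75th percentile was taken, without control spots and spots flagged as outliers. Spots of 1 probe were averaged, and the tested probe of highest mean stood for a gene. Accessions named 26582 of 55681 probes (47.7%) through the RefSeq table of GRCm38.p6. The neoplasia minus wildtype difference was fitted by limma 3.58.1 (R 4.3.3; linear model and eBayes), checked on simulated data. No probe was saturated. The number of arrays, 8, limits the precision.

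The members, gene lists and promoter motifs were chosen with earlier results of these data known. Named are all called members, the CYP1, vitamin D, retinoic acid, sterol and corticosteroid genes, the 8 members of highest mean not called, those with a bound, and up to 6 called genes of each partner list; other members were named after their values were seen. Gene lists are described by counts, without a set test. Alternatives were normexp (offset 50), quantile and spike-in scaling (from the 6 of 10 spike-in probes that every array measured), the authors' values, other filters on dim probes, another background call, the mean or any of a gene's probes, eBayes with trend and robust, a threshold of 0.01, replicate and slide row blocks, slide row 2 alone and leaving out each array. Same-numbered arrays did not deviate together, with correlations of -0.05, -0.03 and -0.00 over features, so numbers were not taken as pairs.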

Additional observations from a re-analysis of the deposited data

Results flagged for a closer look

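Within the 5 neoplasia arrays, 60 P450 genes with at least 1 such array well above background were searched for a single array far from the others, by Dixon's test at its 95% value. It picked 9. Chance picks about 1 in 20 genes where all values are measured, but for Cyp2c68, Cyp2d34, Cyp3a25, Cyp4a29 and Cyp4a32 the other 4 neoplasia arrays were not well above background, so their gaps are to values without order and that rate does not apply. Neoplasia 2 was the high array for 6 of them: Cyp2c68 at -2.55 (others -6.60 to -6.30), Cyp2d26 at 0.52 (-4.80 to -4.16), Cyp3a25 at -3.56 (-7.10 to -6.46), Cyp4a10 at 0.61 (-3.85 to -3.05), Cyp4a31 at 0.58 (-4.17 to -3.01) and Cyp4a32 at 0.02 (-7.40 to -5.40). Neoplasia 5 was high for Cyp2d34 at -3.67 (-6.09 to -5.44), and neoplasia 3 for Cyp4a29 at -4.07 (-7.10 to -6.50). Neoplasia 5 was low for Cyp2d40 at -6.42 (-5.16 to -4.76). Of the neoplasias only neoplasia 3 was well above background for Cyp2d40, so the rate does not apply there either. The genes share the array and, for the Cyp4a genes, close sequence, so these are not separate events.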

How the results depend on the processing

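The main counts were 15 P450 genes higher and 2 lower. With spike-in scaling they were 3 and 10, in the authors' deposited values 6 and 3, with the replicate block 9 and 2, with slide row as a block 0 and 0, on slide row 2 alone 4 and 1, and at an adjusted p of 0.01 2 and 0. Without a filter on dim probes 0 members were lower, beside 8.58% of all features. With probes above background on all arrays 0 were lower too, beside 9.93%, but Cyp2f2 and Cyp7b1 were then not tested. When 1 array was left out, 3 to 14 were higher and 0 to 3 lower, beside 5.14% to 22.5% and 6.08% to 17.1% of all features. With slide row as a block 734 features were higher and 808 lower in all. Over the members well above background per array, no alternative moved the group difference beyond the spread. The median over all features was 0.13, -0.47 with spike-in scaling and -0.34 in the authors' values. Of the named genes, Cyp4f16 reversed with spike-in scaling (-0.11) and Crabp1 with normexp (0.028); their causes were not tested. Of all calls 55.4% were higher, 66.4% with normexp, 50.4% with quantile normalization, 15.2% with spike-in scaling and 19.9% in the authors' values. The replicate block, for numbers that did not pair the arrays, kept 10 of the 17 calls. Depth is not given by arrays; genes below background have bounds only.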
